A study of Mus musculus with 11 samples.

Results

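The adrenergic and muscarinic receptors of the heart were followed across the 4 groups through 8 genes, which are the β-adrenergic receptor genes Adrb1 and Adrb3, the α1-adrenergic receptor genes Adra1a, Adra1b and Adra1d, the M2 muscarinic receptor gene Chrm2 and the β-arrestin genes Arrb1 and Arrb2. They were chosen by name, with earlier results of these data known. The identifiers of the count table were matched to these symbols through GENCODE mouse release 21, which found all 8 genes among the 22608 genes of the table. Of these, 7 passed the filter on low counts (an average of at least 1 log2 CPM over all mice, where CPM are counts scaled to a common library size by the TMM method) and were tested among 11319 genes, and Adrb3 did not pass.

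RNA of heart ventricle was sequenced from 11 male mice after 10 days of daily intraperitoneal treatment. Vehicle was injected into 2 WT mice (WT VEH) and 3 CD mice (CD VEH), and JZL184, at 8 mg/kg, into 3 WT mice (WT JZL184) and a further 3 CD mice (CD JZL184). CD mice are a model of Williams–Beuren syndrome and are heterozygous for a deletion from Gtf2i to Fkbp6 on chromosome 5, WT mice were their littermates on the C57BL/6J background, and animals of the study were 8 to 16 weeks old. JZL184 blocks monoacylglycerol lipase, the enzyme that breaks down the endocannabinoid 2-AG, and the treatment field of the labels calls the mice given vehicle untreated. The comparisons ask how the deletion changed the receptor mRNAs, what JZL184 did to them in each genotype, and whether treated CD hearts differed from WT VEH hearts.

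Noradrenaline and adrenaline act on the heart through β-adrenergic receptors, which couple to Gs, adenylyl cyclase and protein kinase A and raise the rate and force of the beat, and through α1-adrenergic receptors, which couple to Gq and phospholipase C and are known for their part in contractility and in growth of the myocyte. Acetylcholine from the vagus acts on the M2 receptor, which couples to Gi, lowers cAMP and, through the βγ subunits, opens GIRK potassium channels. Stimulated receptors are phosphorylated by G-protein-coupled receptor kinases, and β-arrestins then bind them, stop the coupling and bring them into the cell.

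Total counts per mouse lay between 69660232 and 92251443, and 3 counts corresponded to 0.0306 to 0.0435 CPM, a limit that covers counting error only. All 14 tested genes of the deleted interval had no overlap between the genotypes and were lower in CD mice, as the labels call for. Ventricular markers were high, and of the atrial markers Myl7 reached at most 0.521 CPM, Sln 0.188 CPM and Bmp10 0.0248 CPM (Myl4 reached 1.69 CPM, and Nppa, which ventricles also express, lay between 49.2 and 220 CPM). Mice are named by the letter of their column in the count table.

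Per length of mRNA, Chrm2 was the most abundant of the 8 genes. Levels between genes were compared as CPM per kilobase of the longest annotated coding transcript, since longer mRNAs give more counts, and a heart that uses a shorter transcript would have a higher value on this scale. Over the 11 mice, Chrm2 had 13.96 ± 2.94 CPM per kilobase (mean ± SD) and Adra1b, the α1B receptor, followed with 6.73 ± 1.38. The lowest mouse for Chrm2, at 9.48, was above the highest mouse for Adra1b, at 9.10, whereas Adra1b overlapped with the next gene, Arrb2. Next came Arrb2 (4.19 ± 0.823), Arrb1 (3.92 ± 0.495), Adra1a (3.44 ± 0.864) and Adrb1 (3.36 ± 0.556), whose ranges over all 11 mice of the 4 groups overlapped. Their order was not the same in every group. Adra1a lay above both arrestin genes in WT VEH mice (4.05 and 4.62 CPM per kilobase, with 3.47 and 3.56 for Arrb1 and 3.46 and 3.82 for Arrb2) and below both in CD VEH mice (1.85 to 3.11, with 3.92 to 4.16 and 4.10 to 5.18). Adra1d, the α1D receptor, had 1.22 ± 0.289 CPM per kilobase and lay below each of them in every mouse. Adrb3 had 0.0618 ± 0.0247.

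**Figure D1:**
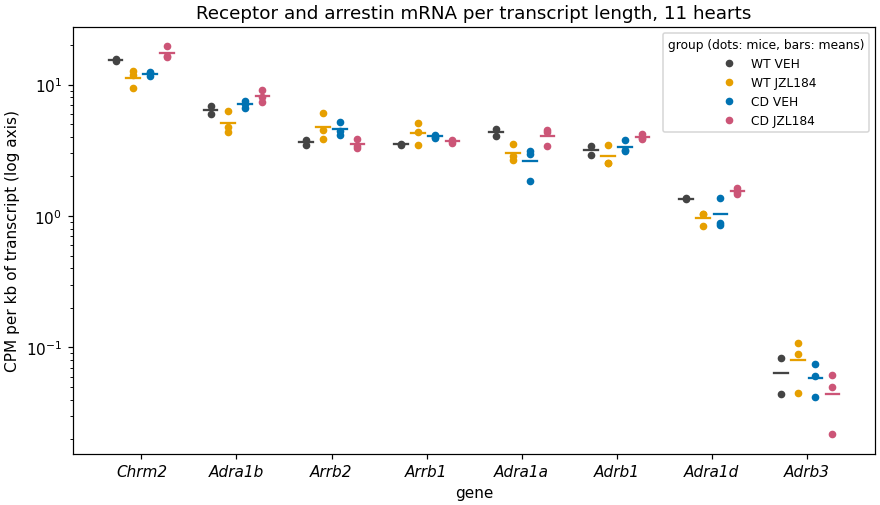
Level of each gene in CPM per kilobase of its longest coding transcript (vertical log axis), with a dot for each of the 11 mice and a bar for each group mean. Chrm2 lies at 9.48 to 19.6 in all mice, the arrestins, Adra1a and Adrb1 share a range, and Adrb3 is far below the rest.

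The promoters of Adrb1, Chrm2 and Adra1b are shown because RefSeq promoter windows (GRCm38.p6) were found for these 3 of the 8 genes. The 3 genes were higher in CD JZL184 than in WT JZL184 hearts, as was Adra1d, for which no window is shown. The windows hold the 250 bases before an annotated start, read 5′ to 3′ on the strand of the gene. The Adrb1 window is chr19:56721867-56722116 on the plus strand, that of Chrm2 is chr6:36387834-36388083 on the plus strand, and that of the downstream start of Adra1b is chr11:43836490-43836739 on the minus strand. Capitals mark matches to the GC box GGGCGG, on either strand, and to the cAMP response element half-site TGACG.
Adrb1: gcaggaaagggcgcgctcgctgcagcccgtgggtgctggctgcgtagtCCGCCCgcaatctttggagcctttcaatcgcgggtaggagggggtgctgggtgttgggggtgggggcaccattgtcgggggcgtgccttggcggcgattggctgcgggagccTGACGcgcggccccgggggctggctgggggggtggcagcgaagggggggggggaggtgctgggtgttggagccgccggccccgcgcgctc
Chrm2: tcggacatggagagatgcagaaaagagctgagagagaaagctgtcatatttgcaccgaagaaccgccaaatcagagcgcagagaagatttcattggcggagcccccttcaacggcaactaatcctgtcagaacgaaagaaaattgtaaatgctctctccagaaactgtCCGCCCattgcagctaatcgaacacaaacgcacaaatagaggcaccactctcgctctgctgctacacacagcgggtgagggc
Adra1b: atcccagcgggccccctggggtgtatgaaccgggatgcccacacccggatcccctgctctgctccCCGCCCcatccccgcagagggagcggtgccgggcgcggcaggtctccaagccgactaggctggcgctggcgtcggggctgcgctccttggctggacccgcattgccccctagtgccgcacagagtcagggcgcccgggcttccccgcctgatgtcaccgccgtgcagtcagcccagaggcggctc
Each of the 3 windows held a GC box, which is found in 32.7% of 32851 mouse promoter windows of this length. The half-site was found only in the Adrb1 window, 90 bases before the start, and is present in 17.8% of windows. A further Adra1b window, at the upstream start (chr11:43901238-43901487, minus strand), held neither. The GC content of the Adrb1 window was 74.0% and that of the downstream Adra1b window 72.8%, against 50.0% for Chrm2, 41.6% for the upstream Adra1b window and a median of 52.4% over all windows. Matches to TATAAA (12.4% of windows), CACGTG (6% of windows), CATTCC (12.6%) and AGATAA (10% of windows), searched on both strands, were in none of the 4 windows, which says only that these letters are not there.

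Adrb1 encodes the β1-adrenergic receptor, the main β receptor of the ventricular myocyte, and lies on chromosome 19 (56722199 to 56733113, plus strand, GRCm38). Its level was 8.56 and 10.1 CPM in WT VEH mice C and D, 7.50, 7.53 and 10.2 CPM in WT JZL184 mice A, B and D, 9.34, 9.24 and 11.1 CPM in CD VEH mice A, C and E, and 11.4, 12.4 and 11.7 CPM in CD JZL184 mice A, C and E. The 3 CD JZL184 mice were the highest of all 11, and the other 3 groups overlapped. Adrb1 was higher in CD JZL184 than in WT JZL184 (log2 fold-change 0.49 ± 0.12 SE, adjusted p = 0.00944, edgeR). The test was not passed between CD VEH and WT VEH (log2 fold-change 0.08 ± 0.14, adjusted p = 0.664) or in CD JZL184 against CD VEH (0.25 ± 0.12, adjusted p = 0.120), although the CD JZL184 and CD VEH mice did not overlap. In WT mice the JZL184 effect was −0.15 ± 0.14 on the log2 scale (adjusted p = 0.424).

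Adrb3 encodes the β3 receptor, best known from adipose tissue, where it drives lipolysis. It had 16 and 10 counts in WT VEH mice, 19, 9 and 26 in WT JZL184, 14, 17 and 10 in CD VEH, and 12, 6 and 15 in CD JZL184. All groups overlapped. With no filter on low counts, when 19080 genes were tested, its smallest adjusted p over the comparisons was 0.200, in CD JZL184 against WT JZL184 (log2 fold-change −0.86 ± 0.45). No difference was called, and with 6 to 26 counts per mouse this does not show that the levels were equal. Markers of adipocytes summed to at most 2.09 CPM in any mouse.

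Adra1a, on chromosome 14 (66635251 to 66771168, plus strand), encodes the α1A receptor, an α1 subtype of the cardiac myocyte. It had 19.8 and 17.3 CPM in WT VEH mice C and D, 12.3, 11.5 and 15.0 CPM in WT JZL184 mice A, B and D, 12.8, 13.3 and 7.90 CPM in CD VEH mice A, C and E, and 18.6, 19.2 and 14.6 CPM in CD JZL184 mice A, C and E. Both WT VEH mice lay above all CD VEH mice, CD VEH mouse E was the lowest of all, and every CD JZL184 mouse lay above every CD VEH mouse. Adra1a was lower in CD VEH than in WT VEH by a fold of 0.611 (log2 fold-change −0.71 ± 0.20, adjusted p = 0.0199). It was 1.54-fold higher in CD JZL184 than in CD VEH (log2 fold-change 0.63 ± 0.18, adjusted p = 0.0197). Without CD VEH mouse E the values were −0.51 (adjusted p = 0.0405) and 0.43 (adjusted p = 0.0527). The first call was kept there but was lost without WT VEH mouse C (adjusted p = 0.136) or mouse D (adjusted p = 0.0600), and the second, lost there, was also lost without CD JZL184 mouse A (adjusted p = 0.0614) or mouse C (adjusted p = 0.0598).

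Adra1b, on chromosome 11 (43774606 to 43901210, minus strand), encodes the α1B receptor, the other α1 subtype of the myocyte. It had 19.9 and 22.8 CPM in WT VEH mice C and D, 14.6, 15.7 and 20.9 CPM in WT JZL184 mice A, B and D, 23.6, 25.1 and 22.1 CPM in CD VEH mice A, C and E, and 26.8, 30.3 and 24.7 CPM in CD JZL184 mice A, C and E. All CD JZL184 mice lay above all WT mice, whereas CD VEH overlapped with WT VEH. Unlike Adra1a, it had a value above 0 between CD VEH and WT VEH, which did not pass the test (log2 fold-change 0.14 ± 0.14, adjusted p = 0.441). It was 1.60-fold higher in CD JZL184 than in WT JZL184 (log2 fold-change 0.68 ± 0.12, adjusted p = 0.00218), and its change in CD JZL184 against CD VEH (0.21 ± 0.12, adjusted p = 0.194) did not pass.

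The balance of the myocyte α1 subtypes was set side by side after their values were seen, and is given without a test. The ratio of Adra1b to Adra1a in CPM per kilobase was 1.29 and 1.69 for the WT VEH mice, 1.53 to 1.78 in WT JZL184, 2.37 to 3.60 in CD VEH and 1.86 to 2.18 in CD JZL184. The ratio was thus higher in each of the 6 CD mice than in each of the 5 WT mice, under both treatments, and was highest in CD VEH.

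Adra1d, on chromosome 2 (131545850 to 131562280, minus strand), encodes the α1D receptor, which is best known from arterial smooth muscle. It had 2.61 and 2.55 CPM in WT VEH mice C and D, 1.98, 1.60 and 1.96 CPM in WT JZL184 mice A, B and D, 1.67, 2.59 and 1.63 CPM in CD VEH mice A, C and E, and 2.90, 2.78 and 3.10 CPM in CD JZL184 mice A, C and E, which rest on 114 to 273 counts. CD VEH mouse C lay with the WT VEH mice and the other CD VEH mice below them, and the CD JZL184 mice were the 3 highest. Adra1d was 1.49-fold higher in CD JZL184 than in CD VEH (log2 fold-change 0.58 ± 0.17, adjusted p = 0.0215), a call lost without CD VEH mouse A or E or without CD JZL184 mouse A or E (adjusted p from 0.0525 to 0.0870). CD VEH against WT VEH gave −0.39 ± 0.19 (adjusted p = 0.131), and without CD VEH mouse C it gave −0.64 (adjusted p = 0.00865).

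**Figure D2:**
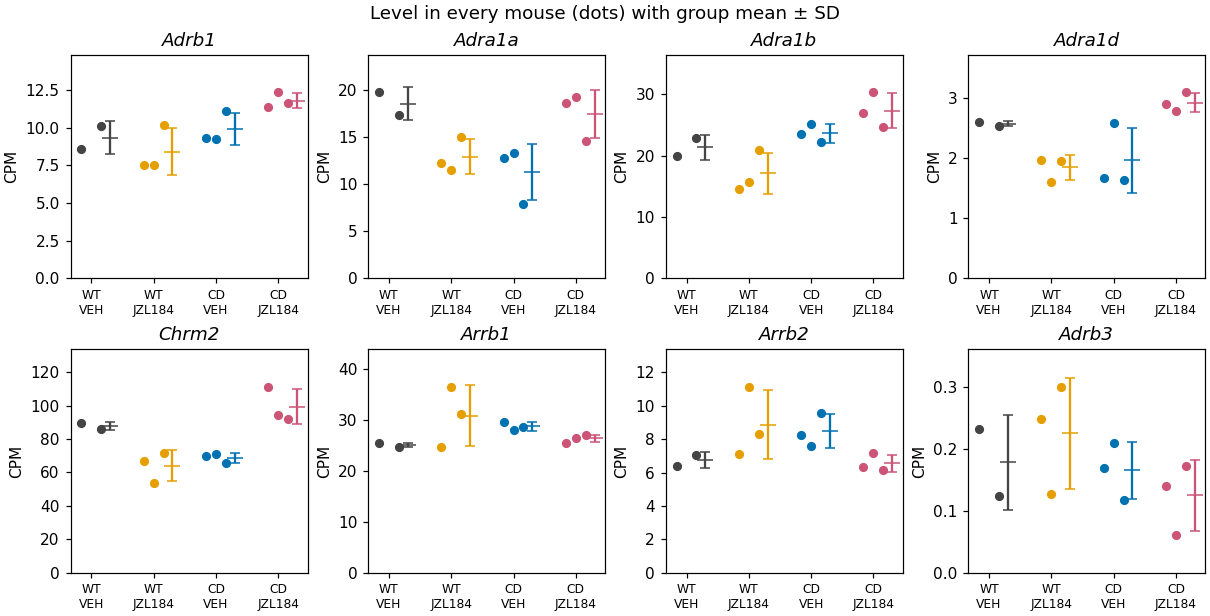
CPM of each gene in every mouse by group (dots), with the group mean and SD beside them, on axes that start at 0. Chrm2 and Adra1a are low in WT JZL184 and CD VEH and high in WT VEH and CD JZL184, while Arrb2 has its 2 lower group means in WT VEH and CD JZL184.

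Chrm2, on chromosome 6 (36388084 to 36528414, plus strand), encodes the M2 receptor, through which the vagus slows the heart. It had 89.4 and 86.2 CPM in WT VEH mice C and D, 66.7, 53.8 and 71.5 CPM in WT JZL184 mice A, B and D, 69.8, 71.1 and 65.5 CPM in CD VEH mice A, C and E, and 111, 94.2 and 92.2 CPM in CD JZL184 mice A, C and E. WT JZL184 and CD VEH mice overlapped with each other and lay below all WT VEH mice, and all CD JZL184 mice lay above all others. It was 1.44-fold higher in CD JZL184 than in CD VEH (log2 fold-change 0.53 ± 0.10, adjusted p = 0.00402), and this call held under all 15 alternatives (adjusted p up to 0.0219). JZL184 had the opposite direction in WT mice, where Chrm2 was lower (log2 fold-change −0.46 ± 0.11, adjusted p = 0.0127), a call lost without either WT VEH mouse. Between CD VEH and WT VEH the log2 fold-change was −0.35 ± 0.11 (lower, adjusted p = 0.0345), and this call was lost in 6 of 14 alternatives, among them an offset for gene length (−0.25, adjusted p = 0.0892).

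The arrestin genes had their higher group means in WT JZL184 and CD VEH, where Adra1a, Adra1d and Chrm2 had their lower ones. Arrb1, on chromosome 7 (99535466 to 99606771, plus strand), encodes β-arrestin 1. It had 25.4 and 24.7 CPM in WT VEH mice C and D, 24.6, 36.5 and 31.2 CPM in WT JZL184 mice A, B and D, 29.7, 27.9 and 28.7 CPM in CD VEH mice A, C and E, and 25.6, 26.5 and 27.0 CPM in CD JZL184 mice A, C and E. CD VEH mice lay above WT VEH and CD JZL184 mice, and WT JZL184 mouse B was the highest of all. Neither the difference of CD VEH from WT VEH (log2 fold-change 0.20 ± 0.12, adjusted p = 0.228) nor that of CD JZL184 from CD VEH (−0.13 ± 0.11, adjusted p = 0.379) passed the test.

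Arrb2, on chromosome 11 (70432635 to 70440828, plus strand), encodes β-arrestin 2. It had 6.40 and 7.06 CPM in WT VEH mice C and D, 7.10, 11.1 and 8.32 CPM in WT JZL184 mice A, B and D, 8.27, 7.58 and 9.58 CPM in CD VEH mice A, C and E, and 6.35, 7.15 and 6.14 CPM in CD JZL184 mice A, C and E. CD VEH mice again lay above WT VEH and CD JZL184 mice. Arrb2 was lower in CD JZL184 than in WT JZL184 (log2 fold-change −0.43 ± 0.15, adjusted p = 0.0353), although these groups overlapped. This call was lost in 6 of 15 alternatives, which were a model of the compared groups alone (adjusted p = 0.0655), the length offset (adjusted p = 0.0671) and leaving out CD JZL184 mouse A or E or WT JZL184 mouse B or D. Without WT JZL184 mouse B the value was −0.24 (adjusted p = 0.143). The test was missed by CD VEH against WT VEH (0.33 ± 0.17, adjusted p = 0.144) and by CD JZL184 against CD VEH (−0.37 ± 0.15, adjusted p = 0.0673), and the latter passed in 3 of 15 alternatives, with DESeq2 (adjusted p = 0.0454), with the compared groups alone (adjusted p = 0.0198) and with the GC content offset (adjusted p = 0.0467).

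Counted over the 7 tested genes, 2 were lower and 0 higher in CD VEH than in WT VEH (Adra1a and Chrm2), where 30.4% of all 11319 genes were called (15% higher and 15.4% lower). In CD JZL184 against CD VEH, 3 were higher (Adra1a, Adra1d and Chrm2) and 0 lower, where 33.9% of genes were called (16.8% higher and 17% lower). These comparisons share the CD VEH mice, so that values of opposite sign in them are not independent. In WT JZL184 against WT VEH, 1 was lower (Chrm2), where 29.4% were called (15.4% higher and 14% lower). In CD JZL184 against WT JZL184, 4 receptor genes were higher (Adrb1, Adra1b, Adra1d and Chrm2) and Arrb2 was lower, where 38.3% were called (18.2% higher and 20.1% lower), and the calls of the 4 receptor genes held under all 15 alternatives. Set against these shares of all genes, the counts of 2 and 3 of 7 were close to the background, 1 of 7 was under it and 5 of 7 was above it, with no test of the list.

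**Figure D3:**
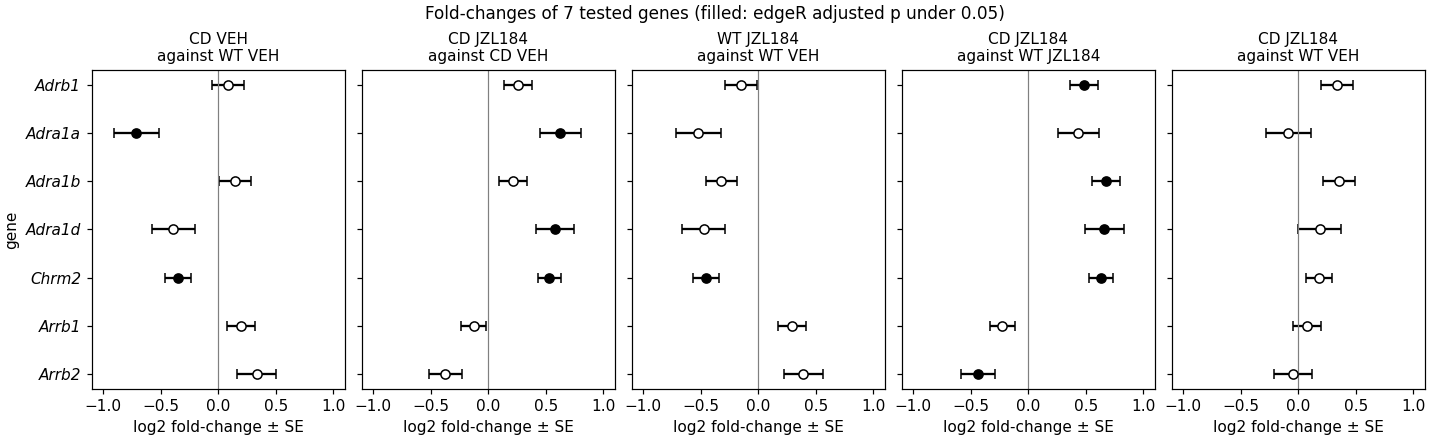
Log2 fold-change ± SE (horizontal axis) of the 7 tested genes in the 5 comparisons between groups, with filled dots for an adjusted p under 0.05. The 2 filled dots of CD VEH against WT VEH lie below 0, the 3 of CD JZL184 against CD VEH lie above it, and CD JZL184 against WT VEH has no filled dot.

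No tested receptor or arrestin gene was called in CD JZL184 against WT VEH by edgeR (0 of 7 genes, where 0.186% of all genes were called, 0.0442% higher and 0.141% lower) or by DESeq2. At an unadjusted p under 0.05, which 1059 of 11319 genes passed, 2 of the 7 were found, Adrb1 (log2 fold-change 0.34 ± 0.14, adjusted p = 0.466) and Adra1b (0.35 ± 0.14, adjusted p = 0.449). The level of Adra1a in CD JZL184 was 17.5 ± 2.52 CPM (SD, n = 3) and in WT VEH 18.6 ± 1.72 CPM (SD, n = 2), a log2 fold-change of −0.09 ± 0.20 (adjusted p = 0.914). For Chrm2 the means were 99.2 ± 10.5 and 87.8 ± 2.21 CPM, in the same order (log2 fold-change 0.18 ± 0.11, adjusted p = 0.659). With 2 WT VEH mice, a p that misses the threshold does not show that the levels were equal.

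The JZL184 effect differed between the genotypes for 6 of the 7 tested genes, where 51.5% of all genes had such an interaction (25.3% above 0 and 26.2% below 0). The JZL184 effect in CD mice minus that in WT mice was 1.15 ± 0.26 on the log2 scale for Adra1a (adjusted p = 0.00395), 1.05 ± 0.25 for Adra1d (adjusted p = 0.00491), 0.98 ± 0.15 for Chrm2 (adjusted p = 0.000406) and 0.53 ± 0.18 for Adra1b (adjusted p = 0.0296). It was −0.42 ± 0.16 for Arrb1 (adjusted p = 0.0463) and −0.77 ± 0.22 for Arrb2 (adjusted p = 0.0129). The 4 receptor genes thus had the higher JZL184 effect in CD mice and both arrestin genes the lower one. In WT mice the JZL184 effect was −0.52 ± 0.20 for Adra1a (adjusted p = 0.0647), −0.32 ± 0.14 for Adra1b (0.0961) and −0.48 ± 0.19 for Adra1d (0.0773). It was 0.30 ± 0.12 for Arrb1 (0.0848) and 0.39 ± 0.17 for Arrb2 (0.0928), so that of these genes only Chrm2 passed the test in WT mice. For Adrb1 the difference was 0.40 ± 0.18 (adjusted p = 0.0827). The calls of Adra1a, Adra1d and Chrm2 held under all 19 alternatives, whereas Arrb1 was called in 8 of 19, Adra1b in 12 of 19 and Arrb2 in 18 of 19.

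**Figure D4:**
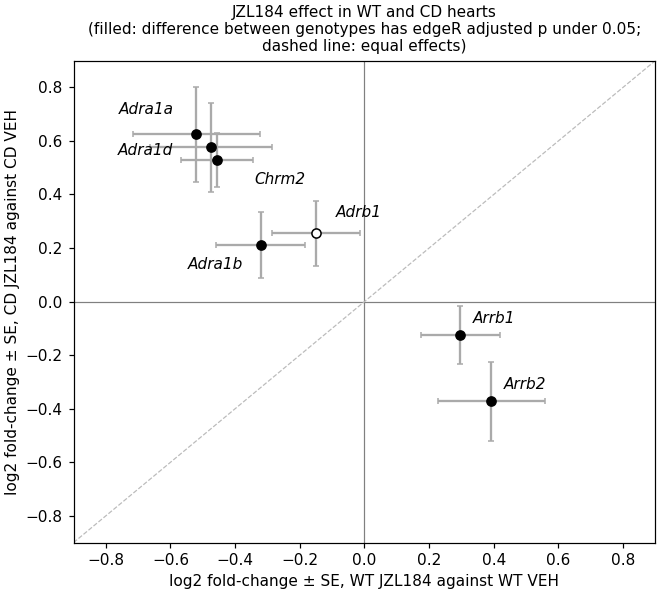
Log2 fold-change ± SE of JZL184 against vehicle in WT mice (horizontal axis) and in CD mice (vertical axis) for the 7 tested genes, with filled dots where the difference between the genotypes has an adjusted p under 0.05. The 5 receptor genes lie at the upper left and both arrestin genes at the lower right, away from the dashed line of equal effects.

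Markers of cells other than myocytes moved with these groups, and so did the sum of the ventricular myocyte markers. The summed CPM of 6 endothelial markers was 548 to 555 for WT VEH, 844 to 892 in WT JZL184, 717 to 801 in CD VEH and 541 to 629 in CD JZL184. Of the endothelial markers, 5 of 6 were higher in CD VEH than in WT VEH and 5 of 6 lower in CD JZL184 than in CD VEH, and the same held for 3 and 3 of 6 fibroblast, 4 and 4 of 7 tested smooth muscle and pericyte, and 4 and 5 of 6 macrophage markers. In CD JZL184 against WT JZL184, where most receptor genes were called, 6 of 6 endothelial, 4 of 6 fibroblast, 6 of 7 smooth muscle and pericyte and 5 of 6 macrophage markers were lower, and in WT mice JZL184 gave the same numbers of higher ones. Of 8 ventricular myocyte markers, 2 were lower in CD VEH than in WT VEH, and 3 were higher and 1 lower in CD JZL184 than in CD VEH. Their summed CPM was 40952 to 41409 for WT VEH and 31123 to 40491 in WT JZL184. It was 36601 to 38843 in CD VEH and 38930 to 41118 in CD JZL184. By this sum every CD VEH mouse lay below every WT VEH and every CD JZL184 mouse, and every WT JZL184 mouse lay below every WT VEH mouse. The share of counts from the mitochondrial genome was 39.4% to 41.2% for WT VEH, 45.0% to 46.6% in WT JZL184, 43.5% to 44.7% in CD VEH and 36.4% to 40.1% in CD JZL184. The level of long genes minus that of short genes was 0.103 to 0.196 for WT VEH, −0.179 to 0.0138 in WT JZL184, −0.209 to −0.0949 in CD VEH and 0.0927 to 0.179 in CD JZL184, on the log2 scale. The part of these differences in the receptor and arrestin values was not tested, and in bulk RNA fewer cells of a type and less RNA per cell cannot be told apart. Of 4 erythroid markers, 0 were called in CD VEH against WT VEH and 4 were lower in CD JZL184 than in CD VEH, with a sum that reached 13290 CPM in CD VEH mouse A. Without this mouse, 1 of the 7 tested genes was called in CD VEH against WT VEH (Adra1a) and 2 in CD JZL184 against CD VEH (Adra1a and Chrm2). For the Schwann cell and sympathetic neuron markers, 2 of 6 were tested and 0 called in both comparisons, the 1 tested atrial marker (Nppa) was not called in either, and 0 of 6 adipocyte markers were tested. The summed CPM of the Schwann cell and sympathetic neuron markers was 8.97 to 9.65 for WT VEH, 8.25 to 10.5 in WT JZL184, 10.9 to 12.6 in CD VEH and 8.91 to 11.7 in CD JZL184. That of the adipocyte markers was 0.137 to 0.203 for WT VEH, 0.143 to 0.450 in WT JZL184, 0.575 to 2.09 in CD VEH and 0.293 to 1.45 in CD JZL184. For both lists every CD VEH mouse lay above every WT VEH mouse.

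Of the 5 receptor kinases, Grk5 was called higher in CD than in WT hearts under both treatments. Grk5 phosphorylates agonist-occupied receptors at the plasma membrane. It had 19.3 and 22.9 CPM in WT VEH mice C and D, 20.1, 24.6 and 25.4 CPM in WT JZL184 mice A, B and D, 37.2, 36.9 and 37.4 CPM in CD VEH mice A, C and E, and 33.9, 42.1 and 37.1 CPM in CD JZL184 mice A, C and E. Every CD mouse lay above every WT mouse. Grk5 was higher in CD VEH than in WT VEH (log2 fold-change 0.82, adjusted p = 0.00212), in CD JZL184 than in WT JZL184 (0.69, adjusted p = 0.000981) and in CD JZL184 than in WT VEH (0.84, adjusted p = 0.00874), in which it was 1 of 5 genes higher. The last call was lost without WT VEH mouse C (0.72, adjusted p = 0.261). JZL184 against vehicle gave 0.02 in CD mice (adjusted p = 0.893) and 0.15 in WT mice (adjusted p = 0.345), and the interaction was −0.13 (adjusted p = 0.498).

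Grk3 and Grk4, further kinases of the family, were lower in CD VEH than in WT VEH. Grk3 fell from 12.4 ± 0.807 CPM in WT VEH to 8.01 ± 0.0970 CPM in CD VEH (log2 fold-change −0.63, adjusted p = 0.00236) and was higher in CD JZL184, at 10.1 ± 1.16 CPM, than in CD VEH (0.33, adjusted p = 0.0117). Its levels were 11.5, 11.2 and 11.6 CPM in WT JZL184 mice A, B and D and 10.9, 8.75 and 10.5 CPM in CD JZL184 mice A, C and E. As with Grk5, the genotypes did not overlap under either treatment, but every CD mouse lay below every WT mouse, and the difference under JZL184 did not pass the test (−0.19, adjusted p = 0.0868). Grk4 fell from 5.13 ± 0.510 to 3.52 ± 0.293 CPM (log2 fold-change −0.54, adjusted p = 0.0222), and its value in CD JZL184 against CD VEH was 0.29 (adjusted p = 0.124). In WT mice it was lower with JZL184 (−0.44, adjusted p = 0.0482). The call between CD VEH and WT VEH was lost in 3 of 14 alternatives, those without CD VEH mouse E or either WT VEH mouse (adjusted p up to 0.168), and the WT call in 6 of 14 (up to 0.271). Grk2, the abundant β-receptor kinase of the heart, had 52.3 ± 1.99 CPM in WT VEH and 55.2 ± 1.15 CPM in CD VEH (log2 fold-change 0.08, adjusted p = 0.359). Grk6 had a value of 0.28 (adjusted p = 0.0634).

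Around the 8 genes, 66 further genes were listed in 7 groups and 50 were tested. The 66 include the 5 receptor kinases, 7 other adrenergic and muscarinic receptor genes and 14 genes for supply and removal of transmitters. The totals are thus not of genes downstream of the receptors alone. In CD VEH against WT VEH, 7 were higher and 15 lower, with a median log2 fold-change of −0.05 against 0.01 over all genes, of which 15% were higher and 15.4% lower. In CD JZL184 against CD VEH, 16 were higher and 6 lower, with a median of 0.08 against −0.0023 over all genes, of which 16.8% were higher and 17% lower. In WT JZL184 against WT VEH, 9 were higher and 15 lower, where 15.4% of all genes were higher and 14% lower. These shares of all genes apply to each group of genes below, and no group was tested against them. In the Gs and cAMP-protein kinase A group, 1 of 14 tested genes was higher and 7 lower in CD VEH than in WT VEH, and 5 were higher and 1 lower in CD JZL184 than in CD VEH. In WT mice, 2 of the 14 were higher and 8 lower with JZL184. Akap6, which anchors protein kinase A in the myocyte, had 148 ± 11.8 CPM in WT VEH, 95.8 ± 7.79 CPM in CD VEH and, under JZL184, 146 ± 11.9 CPM in CD mice (log2 fold-changes of −0.63, adjusted p = 0.00854, then 0.60, adjusted p = 0.00561). Pde4a, a cAMP phosphodiesterase, gave −0.39 (adjusted p = 0.0237) and 0.49 (adjusted p = 0.00562) in the same comparisons, and the first of these calls was lost in 4 of 14 alternatives. Pde2a, a phosphodiesterase stimulated by cGMP, went the other way, with 0.32 (adjusted p = 0.0137) and −0.31 (adjusted p = 0.00816). Among 6 tested substrates of protein kinase A in the myocyte, Cacna1c, the pore subunit of the L-type calcium channel, was the 1 lower gene in CD VEH (log2 fold-change −0.63, adjusted p = 0.0123), and it was among 3 higher genes in CD JZL184 against CD VEH (0.64, adjusted p = 0.00639). For JZL184 in WT mice the values were −0.62 for Akap6 (adjusted p = 0.00900), −0.59 for Pde4a (adjusted p = 0.00489), 0.35 for Pde2a (adjusted p = 0.00965) and −0.69 for Cacna1c (adjusted p = 0.00850). The genes named in each of the 7 groups were chosen for the largest called differences between CD VEH and WT VEH, and each JZL184 comparison shares its vehicle mice with that one, so that the directions of the 3 comparisons are not independent of the choice or of each other. Cacna1c was 1 of 2 lower substrates there, with 0 higher. An offset for gene length brought Akap6 to −0.32 and Cacna1c to −0.35 in CD VEH against WT VEH, to 0.33 and 0.39 for JZL184 in CD mice and Akap6 to −0.38 for JZL184 in WT mice, and kept these calls.

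In the Gq and phospholipase C group, 1 of 9 genes was higher and 2 lower in CD VEH than in WT VEH, and 2 were higher and 1 lower in CD JZL184 than in CD VEH. Plcb1, a phospholipase C activated by Gq, was the higher gene (log2 fold-change 0.51, adjusted p = 0.0331) and was lower in CD JZL184 than in CD VEH (−0.53, adjusted p = 0.0153). The protein kinase C genes Prkce and Prkca were the lower ones, with −0.39 (adjusted p = 0.0128) and −0.23 (adjusted p = 0.0147), and both were higher in CD JZL184 than in CD VEH, with 0.46 (adjusted p = 0.00370) and 0.32 (adjusted p = 0.00259). With JZL184 in WT mice, 2 of the 9 were higher and 2 lower, and Prkce (−0.32, adjusted p = 0.0270) and Prkca (−0.47, adjusted p = 0.00124) were the lower ones, while Plcb1 had 0.44 (adjusted p = 0.0602). With the offset for gene length, Prkca had −0.05 (adjusted p = 0.599) between CD VEH and WT VEH and 0.15 (adjusted p = 0.0869) between CD JZL184 and CD VEH, and both calls were lost. The call of Plcb1 in CD VEH was lost without WT VEH mouse D (0.28, adjusted p = 0.286), among others, and that of Prkce for JZL184 in WT mice was lost without WT VEH mouse C (−0.20, adjusted p = 0.259), among others.

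In the Gi and GIRK group, through which the M2 receptor acts, 3 of 8 genes were higher and 2 lower in CD VEH than in WT VEH, and 4 were higher and 2 lower in CD JZL184 than in CD VEH. Kcnj5, a subunit of the atrial type GIRK channel, fell from 70.04 ± 2.10 to 51.4 ± 3.79 CPM (log2 fold-change −0.45, adjusted p = 0.0139) and had 72.1 ± 6.24 CPM in CD JZL184 (0.49 against CD VEH, adjusted p = 0.00541). Gnao1, which encodes the Go α subunit, had −0.35 (adjusted p = 0.0199) and 0.31 (adjusted p = 0.0200). Rgs4, which speeds the shut-off of Gi and Gq, went the other way, with 0.59 (adjusted p = 0.00561) and −0.55 (adjusted p = 0.00357). Gnai1, a Gi α subunit gene, was higher in CD VEH (0.61, adjusted p = 0.0231) and had −0.26 in CD JZL184 against CD VEH (adjusted p = 0.184). The Gnao1 calls were lost in 4 of 14 and 4 of 15 alternatives. The calls in CD VEH against WT VEH were lost in 3 of 14 alternatives for Gnai1, 2 for Kcnj5 and 1 for Rgs4. With JZL184 in WT mice, 3 of the 8 were higher and 2 lower, among them Rgs4 (0.62, adjusted p = 0.00446) and Kcnj5 (−0.50, adjusted p = 0.00908), whereas Gnao1 had −0.23 (adjusted p = 0.0991) and Gnai1 0.28 (adjusted p = 0.242).

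Of 14 genes for the supply and removal of catecholamines and acetylcholine, 8 were tested, of which 1 was higher and 1 lower in CD VEH than in WT VEH and 1 was higher and 2 lower in CD JZL184 than in CD VEH. Slc22a3, an extraneuronal monoamine transporter, was the lower one in CD VEH (log2 fold-change −0.70, adjusted p = 0.0172), with 0.62 (adjusted p = 0.0164) in CD JZL184 against CD VEH and −0.53 (adjusted p = 0.0512) for JZL184 in WT mice, where 2 of the 8 were higher and 0 lower. Its call in CD VEH was lost in 4 of 14 alternatives and that in CD JZL184 against CD VEH in 3 of 15. Of the enzymes of transmitter synthesis, Th and Chat had at most 2 and 3 counts in any mouse, while Ddc (3.15 to 11.5 CPM) and Dbh (2.87 to 6.20 CPM) were tested and not called in either comparison. Of the other adrenergic and muscarinic receptor genes listed, 0 of 7 were tested, and the highest was Adra2b with 0.855 to 1.07 CPM.

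**Figure D5:**
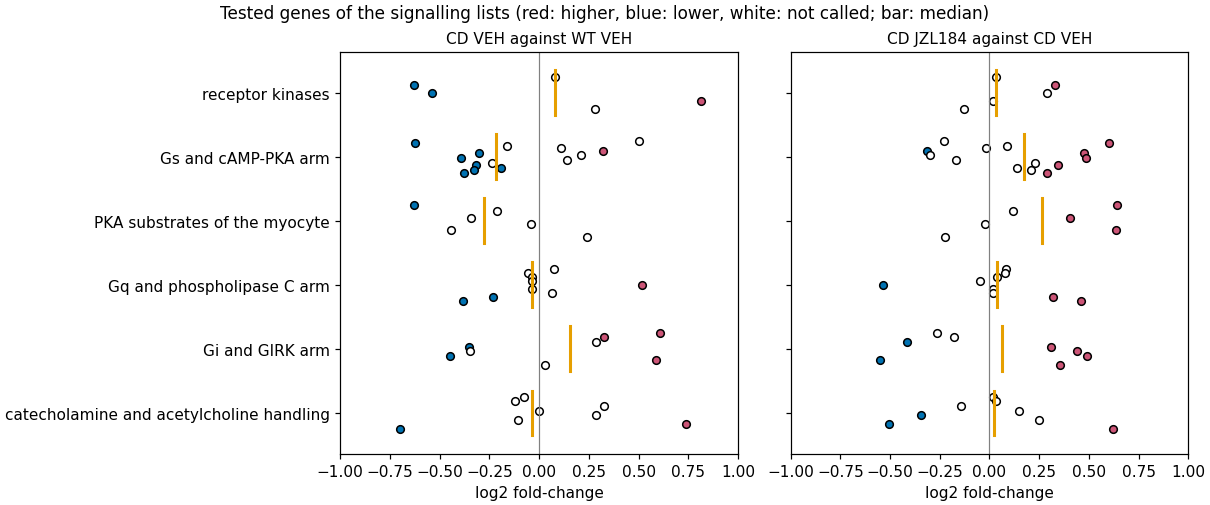
Log2 fold-change (horizontal axis) of each tested gene in 6 groups of signalling genes, in CD VEH against WT VEH (left) and CD JZL184 against CD VEH (right), with red for higher, blue for lower, white for genes that did not pass the test and a bar for the median. In the Gs and cAMP group 7 blue dots on the left and 5 red dots on the right stand out.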

How the data were processed

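RNA from heart ventricle of 11 mice in 4 groups was sequenced, and groups were taken from the sample labels. The authors deposited a table of estimated counts, unnormalized, from Salmon (0.7.2 in the submitters' processing notes) on Ensembl release 85 of GRCm38 and summed to genes with tximport. Strand use in counting was not given in the sources used here, and near-identical copies or overlapping transcripts may share reads.

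Counts were rounded, scaled by TMM and tested in R 4.3.3 with the quasi-likelihood test of edgeR 4.0.16 (limma 3.58.1), with all groups in a single model, for 11319 genes that averaged 1 log2 CPM or more, and p-values were Benjamini-Hochberg adjusted over all of them (threshold 0.05). The biological coefficient of variation common to all genes was 9.13%. By identifier, 22238 of 22608 genes were found in GENCODE mouse release 21. Total counts of 69660232 to 92251443 per mouse and the floor of 3 counts cover counting error only.

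The genes and lists were chosen with earlier results of these data known. Named genes are the receptors and arrestins, the receptor kinases, in each signalling list the 2 genes called in CD VEH against WT VEH with the largest change in each direction, and for each tested receptor or arrestin gene the 2 genes with the most similar pattern (log2 CPM, prior count 2). Of the genes under this rule, 1 is not reported here. Transcript lengths are those of the longest coding transcript. Alternatives were DESeq2 1.42.0, RLE and upper quartile factors, total counts with and without mitochondrial genes, no filter, a minimum of 10 counts in each mouse, a model of the compared groups alone, leaving out mitochondrial genes, offsets for gene length and GC content (loess, span 0.5) and leaving out each mouse. The edgeR and DESeq2 steps were tried on simulated counts for CD VEH against WT VEH only. The other comparisons, the interaction and the other alternatives were not simulated.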

Additional observations from a re-analysis of the deposited data

Results flagged for a closer look

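The difference of the JZL184 effect between CD and WT mice passed the test of that difference (edgeR interaction term, 3 mice per group and 2 WT VEH mice) for 6 of 7 tested genes, against 51.5% of all genes. On the log2 scale it was 1.15 for Adra1a, 0.53 for Adra1b, 1.05 for Adra1d and 0.98 for Chrm2, where JZL184 had values above 0 in CD mice and below 0 in WT mice. It was −0.42 for Arrb1 and −0.77 for Arrb2, where the signs were the other way. The endothelial, fibroblast and smooth muscle markers, the sum of the ventricular myocyte markers and the mitochondrial share given above moved across the same 4 groups. Their part in these differences was not tested.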

How the results depend on the processing

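Of 637 values of the 7 genes under the alternatives, 566 kept their direction and their side of the threshold, 42 lost the call, 23 gained a call and 6 turned their direction, with 0 of these among called values. In CD VEH against WT VEH, the number of genes called, 2, became 1 with upper quartile factors and 1 with an offset for gene length, 3 with only the compared groups (Arrb1 gained a call, 0.20, adjusted p = 0.0366), and 0 to 3 without a single mouse, 0 without WT VEH mouse C or D. In CD JZL184 against CD VEH it went from 3 to 5 with only the compared groups and to 4 with DESeq2 and with the GC content offset, in both of which Arrb2 gained a call, and to 1 to 3 without a single mouse (1 without CD JZL184 mouse A or CD VEH mouse E). In WT JZL184 against WT VEH it went from 1 to 2 with DESeq2, 2 with only the compared groups, 2 with the length offset and 3 with the GC content offset, and to 0 to 3 without a single mouse (0 without WT VEH mouse C or D, 3 without WT JZL184 mouse A or D). Without a single mouse it was 4 to 6 in CD JZL184 against WT JZL184 and 4 to 6 for the interaction, and 0 in CD JZL184 against WT VEH.

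Of the signalling lists, the genes called in CD VEH against WT VEH, 22, were 3 to 24 without a single mouse, 3 without WT VEH mouse C, 8 without WT VEH mouse D and 13 without CD VEH mouse A or E. In WT JZL184 against WT VEH, 24 became 14 with only the compared groups and 4 to 28 without a single mouse, 4 without WT VEH mouse C and 13 without mouse D. In CD JZL184 against WT VEH, 1 became 2 with DESeq2, 2 with only the compared groups and 0 to 1 without a single mouse, 0 without WT VEH mouse C. Without a single mouse the lists gave 16 to 23 in CD JZL184 against CD VEH, 20 to 29 in CD JZL184 against WT JZL184 and 26 to 34 for the interaction.

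Directions turned only for uncalled values near 0. Without a single mouse, Adrb1 in CD VEH against WT VEH ranged from −0.0319 to 0.209 (−0.0129 without CD VEH mouse E), and in CD JZL184 against WT VEH Adra1a ranged from −0.179 to 0.0278 (0.0103) and Arrb2 from −0.110 to 0.0319 (0.00303). Grk5 in CD JZL184 against CD VEH became −0.00839 with upper quartile factors, −0.105 with the length offset and −0.0670 to 0.0914 without a single mouse, and Grk2 in WT JZL184 against WT VEH became −0.0392 with the GC content offset, and −0.0154 to 0.0729 (−0.00414 without WT VEH mouse C) without a single mouse. The causes were not tested. No paired analysis was possible because the columns of the count table carry letters that are in no sample label and no replicate numbers. With 2 WT VEH mice, leaving out 1 assumes that the other varies like the mice of the other groups.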

Other observations

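The genes whose log2 CPM was most like that of each receptor or arrestin gene over the 11 mice are given as a description. The points share their groups, their libraries and the composition of these libraries, so that a high value is common between genes of one pattern. For Adrb1 they were Wdr6 (Pearson r = 0.948, Spearman rho = 0.945) and Ddx51 (r = 0.947, rho = 0.909). For the α1 receptors they were Cyb5r2 (r = 0.955, rho = 0.936) and Rnf217 (r = 0.953, rho = 0.964) with Adra1a, Bcl2l11 (r = 0.957, rho = 0.955) and Bcl9l (r = 0.947, rho = 0.927) with Adra1b, and Nbas (r = 0.970, rho = 0.973) and Sbk1 (r = 0.967, rho = 0.982) with Adra1d. For Chrm2 they were Zfp629 (r = 0.975, rho = 0.964) and Pigv (r = 0.973, rho = 0.982). Plekhg3 (r = 0.966, rho = 0.973) and Klhl36 (r = 0.959, rho = 0.891) were most like Arrb1, and Rnf215 (r = 0.981, rho = 0.945) and Mxra7 (r = 0.975, rho = 0.964) most like Arrb2.

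Relative to the receptors, the ratio of Arrb1 to Arrb2 in CPM per kilobase varied little, from 0.775 to 1.14 over the 11 mice, with overlapping groups except that all 3 CD JZL184 mice (0.960 to 1.14) lay above all 3 CD VEH mice (0.775 to 0.954). The ratio of Chrm2 to Adrb1 on the same scale was 4.43 and 5.43 for the WT VEH mice, 3.64 to 4.63 in WT JZL184, 3.06 to 4.0 in CD VEH and 3.96 to 5.09 in CD JZL184. Both WT VEH mice lay above all CD VEH mice, and the other neighbouring groups overlapped. These ratios were set after the values were seen and were not tested.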
